A study of Mus musculus with 42 samples.

Results

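Cholesterol synthesis genes and their regulators were read on single-colour Agilent arrays of mouse aorta and skeletal muscle, through the 8 genes Hmgcs1, Idi1, Fdps, Fdft1, Sqle, Cyp51, Insig1 and Srebf2. The members were every probe whose gene name in the files is one of these symbols, which gave 19 probes of 41174 on the array and 8 genes of 21186 named ones. The series held 42 arrays, 3 in each of 7 groups for each tissue. Group G was healthy male C57BL/6 mice, and group A was male KK/Ay mice, a strain with spontaneous type 2 diabetes, both given saline. Group C was the diabetic macroangiopathy model, KK/Ay mice that received a high-fat diet and the nitric oxide synthase inhibitor L-NAME in their drinking water for 8 weeks, with saline by gavage. Groups B, D, E and F were the same model given the herbal SHENQI compound, its yangyinyiqi part, its huoxue part or the glucose-lowering drug rosiglitazone by gavage, also for 8 weeks. The mice were 18 to 20 weeks old when they entered the study, and all but those of group G were KK/Ay, so A and C differ from G in strain as well as in diabetes. The labels do not say whether an aorta and a muscle of the same number came from the same mouse.

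Cells make cholesterol from acetyl-CoA by a long chain of enzymes. When sterols in the endoplasmic reticulum run low, the transcription factor SREBP2 is cut free from the membrane and switches on the genes of that chain, and when sterols are plentiful INSIG proteins hold it back. Cholesterol synthesis is best known in the liver, but vessel wall cells, fat cells and muscle fibres carry the same enzymes. Hmgcs1 encodes the cytosolic synthase that makes HMG-CoA. Idi1 encodes isopentenyl diphosphate isomerase and Fdps farnesyl diphosphate synthase, the steps that build the isoprenoid units. Fdft1 encodes squalene synthase, Sqle squalene epoxidase and Cyp51 lanosterol 14-alpha-demethylase, the steps that commit the chain to sterols and begin to trim it. Srebf2 encodes SREBP2 itself, and Insig1 encodes an INSIG protein whose own gene is a target of SREBP2.

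The stretches of promoter that hold the letters by which SREBP2 and its partner factors are known are shown because the enzymes and Insig1 are known as targets of SREBP2. RefSeq promoter sequences on build GRCm38.p6 were held for 5 of the 8 members, and 180 bases of each are printed 5′ to 3′ on the gene's strand. Capitals mark a sterol regulatory element, searched as TCACNCCA, and the CCAAT box, searched as CCAAT, whose reverse complement reads ATTGG. The regions are chr13:119690171-119690350 on the plus strand for Hmgcs1, chr15:82147089-82147268 on the plus strand for Srebf2, chr13:8885426-8885605 on the plus strand for Idi1, chr5:4104698-4104877 on the minus strand for Cyp51 and chr5:28071232-28071411 on the plus strand for Insig1.
Hmgcs1 promoter: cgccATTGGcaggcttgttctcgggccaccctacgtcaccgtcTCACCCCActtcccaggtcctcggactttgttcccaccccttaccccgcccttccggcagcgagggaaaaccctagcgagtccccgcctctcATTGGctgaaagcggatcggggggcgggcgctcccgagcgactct
Srebf2 promoter: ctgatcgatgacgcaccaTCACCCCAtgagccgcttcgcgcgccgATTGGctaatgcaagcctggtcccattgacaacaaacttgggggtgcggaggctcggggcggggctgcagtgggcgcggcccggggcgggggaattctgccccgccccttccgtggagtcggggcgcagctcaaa
Idi1 promoter: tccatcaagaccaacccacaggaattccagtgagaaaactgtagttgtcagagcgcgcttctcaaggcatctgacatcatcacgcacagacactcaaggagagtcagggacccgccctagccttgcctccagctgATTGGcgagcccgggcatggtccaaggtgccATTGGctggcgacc
Cyp51 promoter: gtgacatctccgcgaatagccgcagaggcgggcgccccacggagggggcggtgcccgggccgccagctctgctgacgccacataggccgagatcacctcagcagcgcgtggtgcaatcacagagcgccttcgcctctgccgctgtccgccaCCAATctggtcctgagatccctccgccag
Insig1 promoter: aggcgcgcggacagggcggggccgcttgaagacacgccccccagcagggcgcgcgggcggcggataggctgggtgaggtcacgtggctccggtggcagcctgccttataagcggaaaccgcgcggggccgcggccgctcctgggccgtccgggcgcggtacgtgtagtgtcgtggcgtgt

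Both strands of the whole 300-base promoters were searched, and no match of one motif overlapped a match of another in the stretches printed. The sterol regulatory element was found in 2 of the 5 member promoters, 137 bases before the start of Hmgcs1 and 162 bases before the start of Srebf2, against 1433 of all 32851 promoters (4.36%). The CCAAT box was found in 5 of 5 member promoters and in 37.4% of all promoters. The GC box, searched as GGGCGG and not capitalised above, was also found in 5 of 5 and in 35.7% of all. A match is a description of letters, and the absence of a match in Idi1, Cyp51 and Insig1 says only that these letters are not in the window.

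Probe positions are on build mm9, as the files give them. The brightest probe of Hmgcs1 lies on the unplaced chromosome 13 sequence, 13_random, from 114807 to 114866. The brighter Idi1 probe lies on chromosome 13 from 8891386 to 8891445, and the Sqle probe, the only probe of that gene, on chromosome 15 from 59162384 to 59162443. The brighter Fdps probe lies on chromosome 3 from 88898812 to 88898952, and the brighter Fdft1 probe is split along chromosome 14 between 63765769 and 63770009. A Cyp51 probe lies on chromosome 5 between 4092033 and 4092439 and the brighter Insig1 probe on the same chromosome from 28404246 to 28404305. Srebf2 had 4 probes on chromosome 15, of which one lies from 82034765 to 82034824. Each gene's level was the mean log2 signal of its probes after background correction and quantile normalization, so levels compare groups within a gene and not one gene with another. For 7 members some probe stood well above background on each of the 42 arrays, and for Cyp51 on 40 of them. All 8 members passed the filter on dim genes in every comparison. That filter asks for a bright probe per gene and leaves the gene's dimmer probes in its mean. Probes of Hmgcs1, Fdps, Fdft1, Cyp51 and Srebf2 were well above background on only 2, 5, 6, 6 and 3 of the 21 muscle arrays.

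Tissue labels were checked against marker genes before the results. The mean log2 level of a list of 5 skeletal muscle genes lay between 16.82 and 17.28 in the muscle arrays and between 7.67 and 15.86 in the aorta arrays, so some aorta samples held muscle RNA. The list of 5 vascular smooth muscle genes lay between 9.41 and 10.88 in muscle and between 9.66 and 14.63 in aorta. The aorta arrays also carried adipocyte RNA. Their list of 5 white and brown fat genes lay between 13.81 and 16.28 against 9.37 to 11.99 in muscle, and Ucp1, the uncoupling protein of brown fat, had a mean log2 level of 16.48 in aorta against 6.70 in muscle. The library labelled healthy aorta 1 stood apart, with a smooth muscle list level of 9.66 against 13.47 and 12.42 on the other healthy aortas and a macrophage list level of 10.51 against 8.95 and 8.46. Its smooth muscle level lay inside the range of the muscle arrays. The comparisons with healthy aorta are therefore given with and without it. Healthy muscle 3 also differed from the other healthy muscles. Its macrophage list level was 10.015 against 9.25 and 9.01, and its endothelium list level 7.55 against 8.25 and 8.47. Its smooth muscle list level of 9.41 was the lowest in muscle, and 7 members lay above their group mean on it. Leaving out any 1 array, this one included, left 0 members called in diabetic or model against healthy muscle. Arrays shared 11 slides of up to 4 arrays, and the share of spots well above background was 58.4 to 73.9% in aorta and 49.7 to 65.7% in muscle. In whole tissue, fewer cells of a type and less RNA per cell cannot be told apart.

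Of the 8 genes, 7 were higher in aorta than in skeletal muscle, and Fdft1 was not. Sqle had a log2 level between 7.91 and 10.64 over the 21 aorta arrays, with a median of 9.13, and between 6.95 and 9.35 over the 21 muscle arrays, with a median of 7.44. Insig1 ran from 7.28 to 9.84 in aorta (median 8.01) and from 6.92 to 7.48 in muscle (median 7.13). Hmgcs1 ran from 7.46 to 8.79 in aorta (median 8.37) and from 6.88 to 7.93 in muscle (median 7.34). The aorta arrays were the high ones for all 3 genes, and the ranges of Insig1 and Hmgcs1 overlapped over a short stretch, that of Sqle over a longer one.

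Across the 7 groups, limma's moderated test gave Sqle a log2 difference of 1.57 (SE 0.22, 2.96-fold, adjusted p = 1.23e-07), the largest of the 8 with probes averaged. That order depends on the averaging, since Sqle has a single probe and Hmgcs1 averages a bright probe with dimmer ones. The brightest Hmgcs1 probe alone had mean log2 levels of 12.09 in aorta and 10.2 in muscle. Insig1 was 1.99-fold higher in aorta (log2 difference 0.99, SE 0.13, adjusted p = 3.66e-08) and Hmgcs1 1.93-fold higher (0.95, SE 0.090, adjusted p = 5.07e-11). Fdps, Srebf2, Idi1 and Cyp51 differed less, with log2 differences of 0.66, 0.58, 0.53 and 0.41 and adjusted p-values from 2.09e-08 to 0.000596. Fdft1, squalene synthase, had a mean log2 level of 8.17 in aorta and 8.25 in muscle, a difference of -0.084 (SE 0.086, adjusted p = 0.376). Its brighter probe was lower in aorta, at 10.11 against 10.46, and its dimmer one slightly higher, at 6.23 against 6.05. Over the alternatives the difference of Fdft1 ran from -0.35 to -0.024, and the lowest adjusted p by limma was 0.0262. Most genes on the array differed between these tissues, since 78.3% of the 16176 tested were called at an unadjusted p under 0.05 and 41.1% were called higher in aorta, so the 7 of 8 members called higher are to be read against that share. The members' median log2 difference was 0.62 and that of all genes 0.029. It was 1.09 with the scanner's processed signal and 1.06 with the authors' value table. Within a group of 3 against 3 arrays, Insig1 had every aorta array above every muscle array in 6 of the 7 groups, and Hmgcs1, Sqle and Srebf2 in 5 each. Fdps did so in 4 groups, Idi1 in 3, Cyp51 in 2 and Fdft1 in none. Of all genes 41.2% did so in at least 2 groups, 20.3% in at least 5 and 14.1% in at least 6, against 7, 4 and 1 of the 8 members. No member did so in all 7 groups, and 5.66% of all genes did. Without healthy aorta 1 the same 7 members were called higher, with a median of 0.66. The fat and smooth muscle lists moved with tissue as given above, and their part in these differences was not tested.

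**Figure D1:**
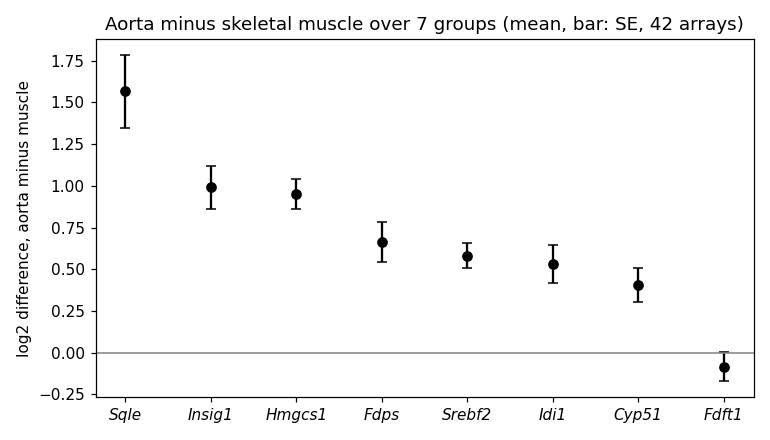
Log2 difference of each of the 8 genes between aorta and skeletal muscle (vertical axis, aorta minus muscle), with points for the estimate over 7 groups and bars for its SE. Sqle lies highest at 1.57 and Fdft1, the mean of 2 probes, is the only gene at about 0, at -0.084.

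The other genes of the pathway were described by a list of 21, of which 20 were tested. In aorta against muscle 13 were higher and 5 lower at an adjusted p under 0.05 by limma, 18 of 20 against 76.9% of all genes. Msmo1, sterol C4-methyl oxidase (log2 difference 1.38, SE 0.19), Acat2, which makes the first acetoacetyl-CoA (1.25, SE 0.14), Ebp, the sterol isomerase (1.12, SE 0.084), and Srebf1, the sister factor of Srebf2 that is best known for fatty acid genes (1.06, SE 0.11), were higher in aorta. Insig2, the other INSIG gene, was lower in aorta by a log2 difference of -0.89 (SE 0.055), on the opposite side from Insig1. Hsd17b7 (-0.67), Lbr (-0.77), Mvd (-0.48) and Ggps1 (-0.37) were the other genes that passed the test as lower in aorta.

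When the 7 group means of a gene were put in order within a tissue, neighbours in that order overlapped in 6 of 6 pairs for every gene in aorta. In muscle they overlapped in all pairs for 6 genes and in 5 of 6 for Hmgcs1 and Fdft1. The healthy group had the highest aorta mean for 5 members, Idi1 (9.15 ± 0.99, SD, n = 3), Fdft1 (8.49 ± 0.65), Sqle (10.03 ± 0.56), Cyp51 (7.39 ± 0.44) and Insig1 (9.22 ± 1.05). The lowest aorta mean of 4 of them was that of the yangyinyiqi group, at 7.89 for Idi1, 8.64 for Sqle, 6.44 for Cyp51 and 7.79 for Insig1. For these 4 every healthy aorta array was above every yangyinyiqi one, Idi1 by the narrowest gap, from 8.0 to 8.03. These groups were picked as the highest and lowest means of the same values, which favours separation, and they differ in strain. The share of all genes separated between them was not counted, so no result about the members is drawn from it. Srebf2 had the narrowest span of group means, 0.27 in aorta and 0.28 in muscle on the log2 scale.

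**Figure D2:**
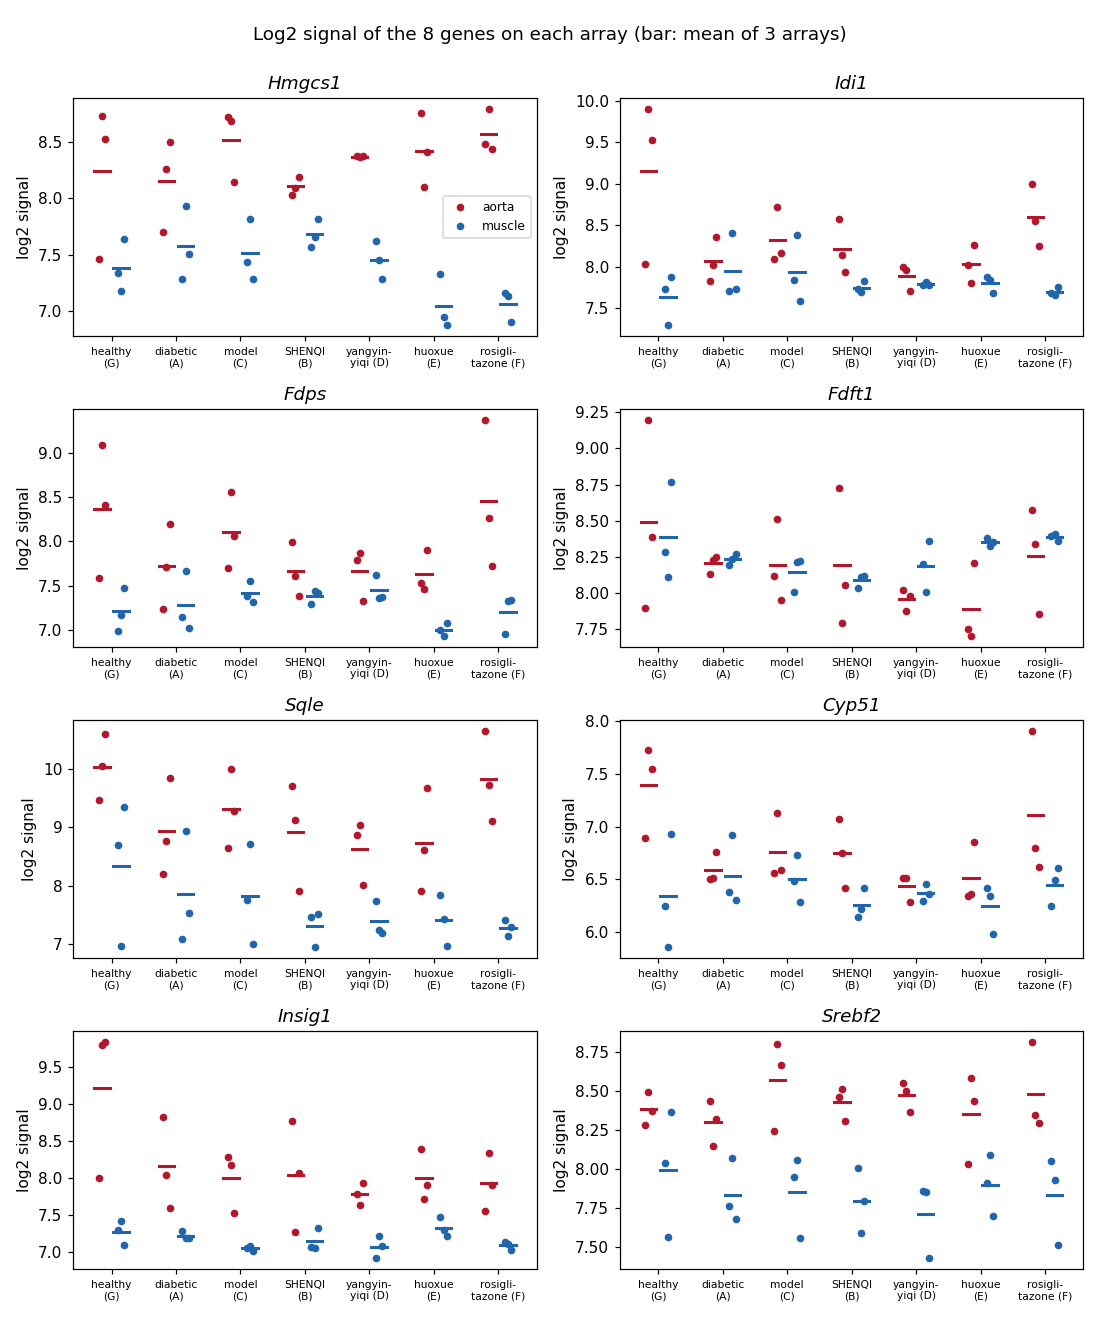
Log2 signal (vertical axis) of each gene on each of the 42 arrays, by group, with aorta and muscle in separate colours, a point for each array and a bar for the mean of 3. The healthy aorta arrays are spread widely, Idi1 from 8.03 to 9.90 and Insig1 from 8.01 to 9.84, and in most panels the arrays of neighbouring groups overlap.

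Diabetic against healthy aorta asked how spontaneous diabetes in KK/Ay mice went with these genes. All 8 members had a lower mean in diabetic aorta, and Idi1, Insig1 and Cyp51 passed an unadjusted p under 0.05, the threshold of the study's methods. Idi1 read 8.03, 9.90 and 9.52 on the healthy aortas and 7.83, 8.02 and 8.36 on the diabetic ones. Insig1 read 8.01, 9.80 and 9.84 on the healthy aortas and 8.83, 8.05 and 7.60 on the diabetic ones. Cyp51 read 6.89, 7.73 and 7.55 against 6.51, 6.51 and 6.76. Healthy aortas 2 and 3 were high and healthy aorta 1 low for all 3 genes, so the groups overlapped for Idi1 and Insig1 and stood clear of each other only for Cyp51.

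Idi1 was lower in diabetic aorta by 2.12-fold (log2 difference -1.08, SE 0.42, adjusted p = 0.212 by limma). Cyp51 was lower by 1.73-fold (-0.79, SE 0.30, adjusted p = 0.202 by limma), and Insig1 by 2.08-fold (-1.05, SE 0.45, adjusted p = 0.258 by limma). None of the 8 passed after adjustment over the 14808 genes tested. The 3 called lower stand against 6.94% of all genes called lower and 16.9% called in either direction, and the 1 member without overlap against 18.9%. The median log2 difference of the members was -0.72 and that of all genes 0.020, with 48.1% of genes below 0. Sqle read 9.47, 10.04 and 10.59 on the healthy and 8.20, 8.77 and 9.85 on the diabetic aortas, widely spread within both groups and overlapping. Its difference was -1.09 (SE 0.66, adjusted p = 0.44 by limma), and Fdps, Fdft1, Hmgcs1 and Srebf2 had -0.65, -0.29, -0.087 and -0.082. The vascular smooth muscle list moved the other way, with 4 of its 5 genes called higher in diabetic aorta, against 10% of all genes, and a median log2 difference of 1.87. That includes healthy aorta 1, whose list level was 9.66 against 13.47 and 12.42 on the other healthy aortas and 13.34 to 14.14 on the diabetic ones. The marker lists were not tested without that array. Of 3 cardiac muscle genes 2 were called higher (median 1.36), and 0 of 5 skeletal muscle genes were called (median 1.83). The part of these lists in the members' values was not tested.

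Leaving out healthy aorta 1, which was low for all 8 members as well as for smooth muscle genes, changed these calls. On the remaining 2 healthy and 3 diabetic aortas, 5 members were called lower (8.56% of all genes) and 2 of them passed after adjustment (3.43% of all genes). Idi1 was then 3.13-fold lower (log2 difference -1.65, SE 0.27, adjusted p = 0.011 by limma) and Insig1 3.16-fold lower (-1.66, SE 0.29, adjusted p = 0.0144 by limma). Cyp51 had -1.04 (adjusted p = 0.0925), Fdps -1.03 and Fdft1 -0.59, and the median over the 8 was -1.04. Leaving out healthy aorta 2, healthy aorta 3 or diabetic aorta 2 in its place left 0 members called, and leaving out diabetic aorta 1 left 1. Slide 1 held healthy aortas 1 and 3 and diabetic aorta 1, and within it Idi1 differed by -0.95 and Insig1 by -0.092, with a member median of -0.50. That slide was scanned on another day than the other healthy and diabetic aortas. With slide as a block over all 42 arrays, Idi1 had -1.23 (adjusted p = 0.122 by limma), Cyp51 -0.88 (adjusted p = 0.193 by limma) and Insig1 -0.42 (adjusted p = 0.72 by limma).

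In diabetic against healthy muscle no member passed the test. Idi1 read 7.74, 7.30 and 7.88 on healthy and 7.70, 8.41 and 7.73 on diabetic muscle. Cyp51 read 6.25, 5.86 and 6.93 against 6.38, 6.92 and 6.31, and Insig1 7.30, 7.43 and 7.10 against 7.29, 7.19 and 7.20. The groups overlapped for all 3. By limma 0 of 8 members were called at an unadjusted p under 0.05, against 12.7% of all genes, with log2 differences from -0.48 for Sqle to 0.31 for Idi1 and a median of 0.0081. The test of the difference between the tissues called Idi1 (-1.40, SE 0.59, adjusted p = 0.672 by limma) and Cyp51 (-0.98, SE 0.42, adjusted p = 0.682 by limma), 2 of 8 members against 7.13% of all genes. Both of these calls were lost without healthy aorta 2 or 3, diabetic aorta 1 or 2, healthy muscle 1 or 2 or diabetic muscle 2, where the difference of Idi1 ran from -1.45 to -1.02. Without healthy aorta 1, 4 of 8 members were called in that test, against 11.7% of genes, with Idi1 at -1.96 (adjusted p = 0.0566 by limma) and Insig1 at -1.60 (adjusted p = 0.139 by limma). With both tissues in a single fit no member was called (22.1% of genes were).

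Of the 20 tested wider pathway genes, 4 were called lower in diabetic aorta and 0 higher, against 6.94% and 10% of all genes. After adjustment 2 of these passed, against 2.22% of all genes. Pmvk, phosphomevalonate kinase, had a log2 difference of -2.67 (SE 0.59, adjusted p = 0.0447 by limma) and Ggps1, which makes geranylgeranyl diphosphate, -0.87 (SE 0.18, adjusted p = 0.0366 by limma). Lss, lanosterol synthase (-0.84), and Nsdhl, a sterol dehydrogenase (-1.10), were the other 2 called, named after their values were seen. Without healthy aorta 1, Pmvk had -3.59 (adjusted p = 3.27e-05 by limma) and Ggps1 -0.69 (adjusted p = 0.0461 by limma). The list's median was -0.34 in aorta and 0.17 in muscle, where 0 of 20 were called, against 12.7% of all genes. Strain and diabetes cannot be told apart in any of these comparisons with group G.

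The macroangiopathy model against healthy mice shared the healthy arrays with the comparison above, and Insig1 was the member that passed the unadjusted threshold. Insig1 read 8.30, 8.18 and 7.53 on the model aortas against the healthy 8.01, 9.80 and 9.84. The model arrays were below healthy aortas 2 and 3 and around healthy aorta 1, so the groups overlapped. The log2 difference was -1.21 (SE 0.42, 2.32-fold, adjusted p = 0.107 by limma), 1 of 8 members called against 24.2% of all genes. Idi1 read 8.09, 8.72 and 8.17 on the model aortas, a difference of -0.83 (SE 0.43, adjusted p = 0.266 by limma), and Cyp51 had -0.63 (adjusted p = 0.233 by limma). Hmgcs1 and Srebf2 were on the other side of 0, at 0.28 and 0.19. The members' median was -0.46. In model aorta 5 of the 5 smooth muscle genes were called higher, against 14.3% of all genes, with a median log2 difference of 2.47. This too includes the low level of healthy aorta 1, and the list was not tested without it. The unadjusted call of Insig1 was lost without healthy aorta 2 (-0.92), healthy aorta 3 (-0.90) or model aorta 3 (-0.98).

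Without healthy aorta 1, 4 members were called lower in model aorta (11.4% of all genes) and 2 passed after adjustment (7.42% of all genes). Insig1 was 3.53-fold lower (log2 difference -1.82, SE 0.21, adjusted p = 0.00189 by limma) and Idi1 2.61-fold lower (-1.39, SE 0.28, adjusted p = 0.0203 by limma). In that setting the difference of Insig1 between aorta and muscle was -1.60 (adjusted p = 0.0364 by limma), while with all arrays it was -0.99 (adjusted p = 0.531 by limma). That test called 4 of 8 members without healthy aorta 1, against 18% of genes, and 0 of 8 with all arrays, against 12.4%. Insig1 was also lower in model muscle without overlap, at 7.07, 7.09 and 7.02 against 7.30, 7.43 and 7.10, but the difference was small (-0.22, adjusted p = 0.854 by limma). It was 1 of 8 members without overlap there, against 28.7% of all genes, and 0 of 8 were called in muscle (13.9% of all genes). With both tissues fitted together Insig1 had -0.72 (adjusted p = 0.19 by limma), against 24.3% of genes called. Of the 20 tested pathway genes Pmvk (-2.58) and Ggps1 (-0.92) passed after adjustment in aorta, against 6.15% of all genes. Without healthy aorta 1 they had -3.50 and -0.74. No slide held both model and healthy arrays of a tissue, so slide and group cannot be told apart in these values.

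The model against diabetic mice, which differ in diet and L-NAME, brought no member past the test. By limma 0 of 8 were called with both tissues (5.12% of genes), in aorta (7.73%) or in muscle (2.87%). Insig1 read 8.30, 8.18 and 7.53 in model aorta and 8.83, 8.05 and 7.60 in diabetic aorta, a difference of -0.16 (SE 0.27). Fdps differed most in aorta, by 0.39 (SE 0.27, adjusted p = 0.746 by limma). The median over the members was 0.26 in aorta and -0.029 in muscle. Over all genes, 0 passed after adjustment with both tissues and 5 in aorta.

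**Figure D3:**
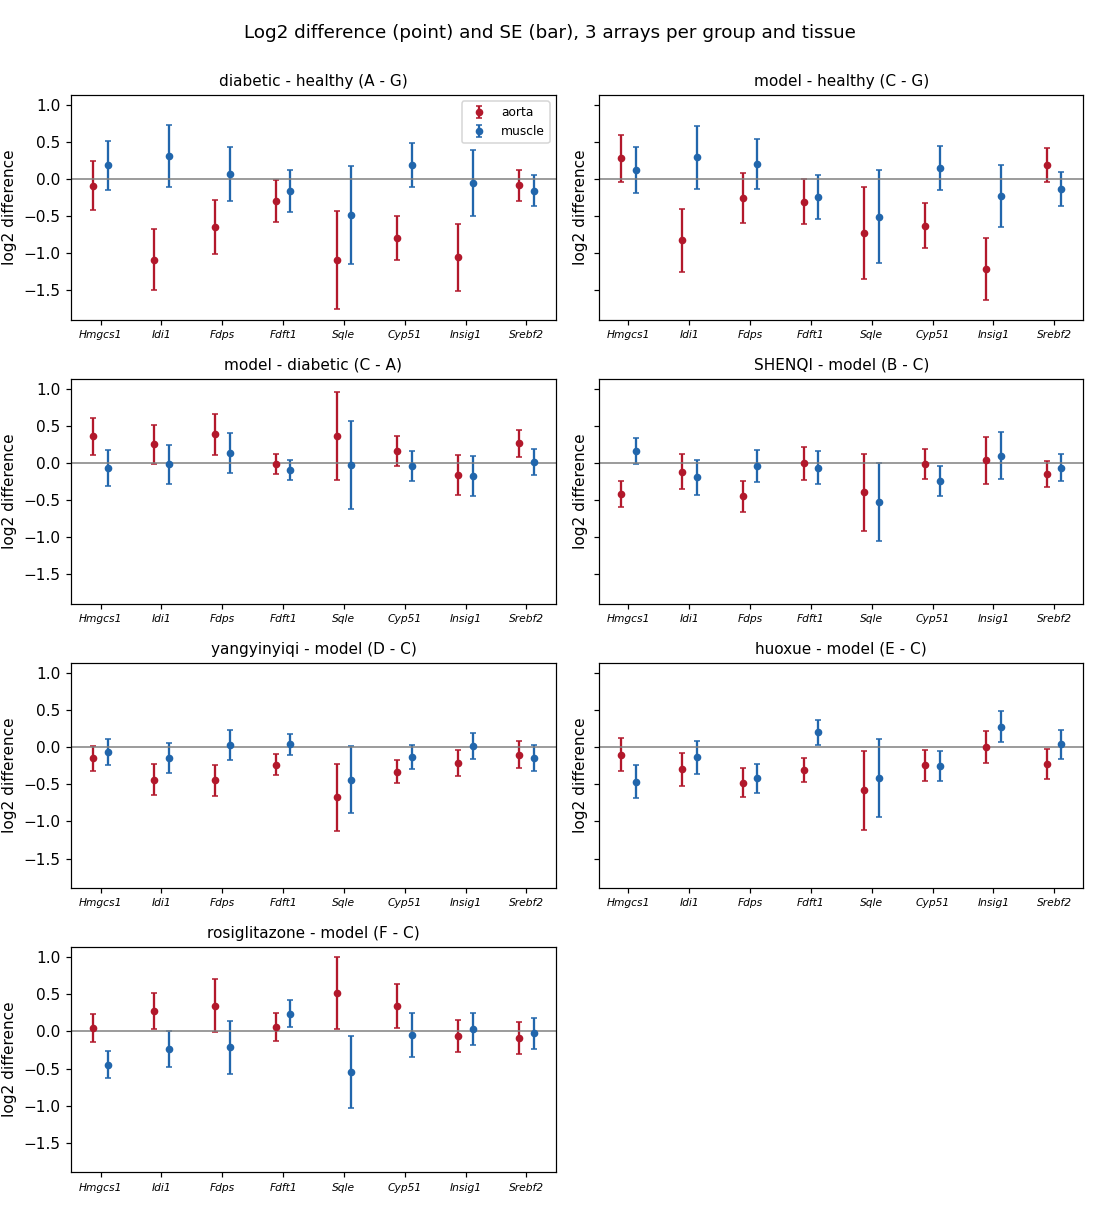
Log2 differences of the 8 genes (vertical axes) in the 7 comparisons, with a point for each estimate, a bar for its SE and separate colours for aorta and muscle. In the panels against healthy mice, Sqle, Idi1, Insig1 and Cyp51 lie lowest in aorta, down to -1.21 for Insig1 in the model, and the muscle points of Idi1, Insig1 and Cyp51 lie closer to 0.

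The 4 treatments were each compared with the model, and all share its 6 arrays. In SHENQI against the model the member called was Hmgcs1, the HMG-CoA synthase, which read 8.03, 8.09 and 8.19 in treated aorta and 8.72, 8.69 and 8.14 in model aorta. Model aorta 3 lay among the treated arrays, so the groups overlapped. The log2 difference was -0.41 (SE 0.18, 1.33-fold lower, adjusted p = 0.977 by limma), and Hmgcs1 was the only member called in aorta, against 4.67% of all genes. SHENQI aortas lay on slides 1 and 2 and model aortas on slide 6, so slide and treatment cannot be told apart in aorta. In muscle Hmgcs1 read 7.57, 7.65 and 7.82 against 7.43, 7.82 and 7.29 (0.17, adjusted p = 1 by limma). The difference between the tissues was -0.58 (SE 0.25, adjusted p = 1 by limma), 1 of 8 members against 1.92% of genes. The aorta call was lost without model aorta 1 or 2, model muscle 1, any SHENQI aorta, or SHENQI muscle 1 or 2, where the difference ran from -0.46 to -0.31. Fdps had -0.45 in aorta (SE 0.21, adjusted p = 0.977 by limma). No member was called with both tissues (2.71% of genes) or in muscle (1.14%), and no gene of the array passed after adjustment.

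Yangyinyiqi, a part of the SHENQI compound, gave lower means for all 8 members in aorta, against 46% of all genes below 0, and none passed the test. The log2 differences in aorta ran from -0.67 for Sqle (SE 0.45) and -0.44 for Fdps (SE 0.21) to -0.10 for Srebf2, with a median of -0.28. Idi1 read 8.0, 7.96 and 7.71 against 8.09, 8.72 and 8.17 in the model (-0.43, SE 0.21), and Cyp51 6.51, 6.51 and 6.29 against 6.57, 7.13 and 6.59 (-0.33, SE 0.16). These were the 2 members without overlap in aorta, against 5.88% of all genes. By limma 0 of 8 were called in aorta (3.9% of genes), muscle (1.81%) or both (3.4%). Of the wider pathway 4 genes, Dhcr7, Hsd17b7, Mvd and Tm7sf2, were called lower in aorta, against 1.84% of all genes. A lower mean was seen in 19 of 20. The 4 called had adjusted p-values of 1 by limma and were named after their values were seen. In muscle the members' median was -0.092. Of the marker lists in aorta, 1 of 3 cardiac muscle genes (median -2.16) and 1 of 4 macrophage genes (median -0.065) were called lower, and their part in the members' values was not tested. Without model aorta 1 or model aorta 3, 3 members passed an unadjusted p under 0.05 in aorta, and 1 did without model muscle 2 or 3 or yangyinyiqi aorta 2. Within slide 6 the aorta median was -0.23, on 1 treated and 3 model arrays, and within slide 8 the muscle median was 0.15, on 3 treated arrays and 1 model array.

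With huoxue, the other part of the compound, the member called was Fdps, farnesyl diphosphate synthase. Fdps read 7.53, 7.47 and 7.90 in treated aorta and 7.70, 8.56 and 8.07 in model aorta. In muscle it read 7.00, 6.93 and 7.08 against 7.39, 7.55 and 7.32, where every treated array was below every model array. With both tissues the log2 difference was -0.45 (SE 0.13, adjusted p = 0.219 by limma), 1 of 8 members against 14.3% of genes, and in aorta -0.48 (SE 0.20, adjusted p = 0.949 by limma), 1 of 8 against 4.75%. The aorta call was lost without model aorta 2 (-0.25) or 3 (-0.50) and without huoxue aorta 1 (-0.42) or 2 (-0.39). In muscle 0 of 8 members were called at an unadjusted p under 0.05 by limma, against 25.4% of genes, and 3 stood without overlap, against 46.7%. Fdps had -0.42 and Hmgcs1 -0.46 there (adjusted p = 0.216 and 0.223 by limma). The 2 Fdps probes disagreed in muscle. The brighter one differed by 0.052, and the dimmer one was well above background on 0 of 3 huoxue and 1 of 3 model muscle arrays, so no difference is given for it. The lower muscle level of Fdps is the mean of both probes and so rests on signal near background, as does its part in the call with both tissues. No slide held both huoxue and model arrays, so slide and treatment cannot be told apart in either tissue.

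In rosiglitazone against the model the member called was Hmgcs1, in muscle. Hmgcs1 read 7.16, 7.13 and 6.90 in treated muscle and 7.43, 7.82 and 7.29 in model muscle, and the groups did not overlap. The log2 difference was -0.45 (SE 0.19, 1.36-fold lower, adjusted p = 0.231 by limma), 1 of 8 members against 18.5% of all genes. The call was lost without model muscle 1 or 2 or rosiglitazone muscle 2 or 3, where the difference ran from -0.49 to -0.29. Members without overlap in muscle numbered 2, Hmgcs1 and Fdft1, against 34.7% of all genes. Fdft1 read 8.40, 8.41 and 8.36 against 8.0, 8.21 and 8.22, a difference of 0.24 (adjusted p = 0.547 by limma). In aorta 6 of 8 members had a higher mean, with Sqle at 0.51 (SE 0.48) and a median of 0.17, and 0 of 8 were called by limma (11.6% of genes). Rosiglitazone aorta 1 was the high array there, with Sqle at 10.64 against 9.72 and 9.11 on the other arrays and Cyp51 at 7.90 against 6.80 and 6.62. No slide held both rosiglitazone and model arrays, so slide and treatment cannot be told apart in either tissue.

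The Hmgcs1 values in muscle rested on its brightest probe and moved with the slide. That probe, the only Hmgcs1 probe well above background on all 42 arrays, read 9.89, 9.10 and 9.10 in huoxue muscle, 9.24, 9.78 and 9.32 in rosiglitazone muscle and 10.56, 11.08 and 10.30 in model muscle. Fitted alone among 28151 and 28427 probes, it differed from the model by -1.28 with huoxue (SE 0.32, adjusted p = 0.0225 by limma) and by -1.20 with rosiglitazone (SE 0.28, adjusted p = 0.0269 by limma). All huoxue and rosiglitazone muscle arrays lay on slides 3 and 11, and no model muscle array did. The 8 muscle arrays of those slides, healthy muscle 1 and 2 among them, read between 9.10 and 9.89, and the other 13 between 10.30 and 11.31, whatever their group. In aorta the 4 arrays of slide 1 read between 10.18 and 11.97 and the other 17 between 11.78 and 13.07. With slides 1, 3 and 11 as a batch term over all 42 arrays, the differences were -0.14 and -0.053. That grouping was chosen in an earlier analysis after values of these arrays had been seen, and it follows no label. It joins slides of different scan days. Slide 1 was all of scan day 4 and slide 3 all of scan day 3, while slide 11 shared scan day 1 with other muscle slides. The term takes up the low values by its construction, and these differences are given as a description. Leaving out model muscle 2 gave -1.07 (adjusted p = 0.0905 by limma) and -0.98 (adjusted p = 0.0982 by limma), and both calls were also lost without model muscle 1 and without each of 2 treated arrays. Slide and treatment cannot be told apart within these muscle comparisons.

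**Figure D4:**
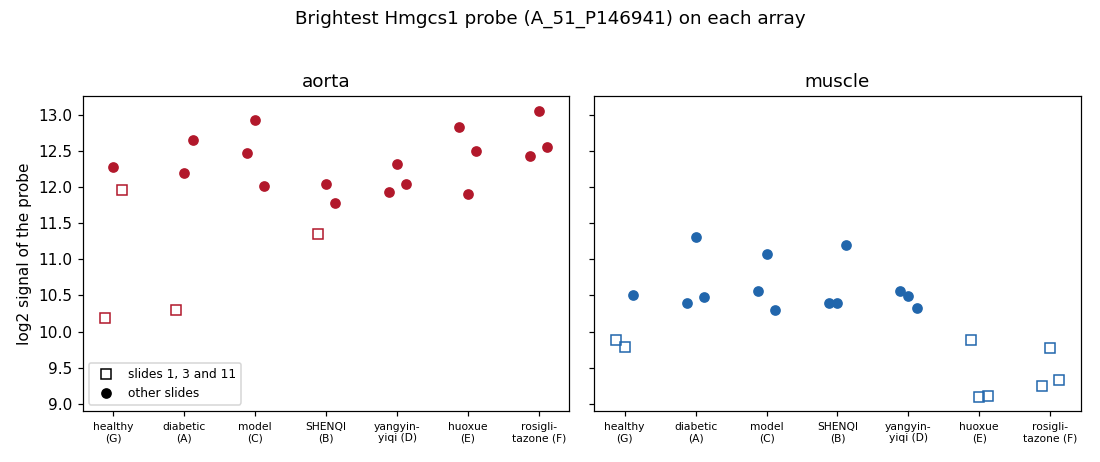
Log2 signal (vertical axis) of the brightest Hmgcs1 probe on each array of aorta and muscle by group, with open squares for arrays of slides 1, 3 and 11 and filled circles for the other slides. In muscle the 8 open squares lie between 9.10 and 9.89 and the 13 circles between 10.30 and 11.31.

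Each array's deviation from the mean of its group and tissue was set against the mean deviation of the other 7 members, over 21 arrays a tissue. These values share the array's normalization, its slide and its tissue make-up, and they are given as a description. In aorta Idi1 had a Pearson r of 0.96 (Spearman rho 0.97), Fdps 0.88 (0.86), Cyp51 0.87 (0.90), Fdft1 0.85 (0.78) and Sqle 0.62 (0.68). Without the 2 arrays farthest from the median they were 0.97, 0.83, 0.88, 0.78 and 0.76. Hmgcs1 had 0.51 (0.29), which fell to 0.16 without healthy aortas 1 and 2 and so rests on those arrays, and Srebf2 had 0.45 (0.34).

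In muscle Sqle had an r of 0.93 (rho 0.86), Idi1 0.91 (0.87), Cyp51 0.86 (0.75), Hmgcs1 0.86 (0.85) and Srebf2 0.70 (0.61), and without the 2 farthest arrays these were 0.89, 0.93, 0.79, 0.88 and 0.61. Fdps had 0.56 (rho 0.48) and Fdft1 0.44 (rho 0.22) in muscle, both lower values than in aorta. Insig1 followed the mean of the other members least, with an r of 0.26 (rho 0.074) in aorta and -0.25 (rho -0.074) in muscle. That mean includes Srebf2 beside the enzymes. Without the 2 farthest arrays r was 0.099 in aorta and 0.14 in muscle. By pairs in aorta, Insig1 had an r of 0.56 with Fdft1, 0.50 with Idi1 and 0.49 with Hmgcs1. With Cyp51, Fdps and Sqle it had 0.18, 0.12 and -0.077. In muscle its pairs with the enzymes ran from -0.51 for Fdft1 to 0.0034 for Hmgcs1. The median r over the 28 pairs of members was 0.54 in aorta and 0.55 in muscle, with 25 and 22 pairs above 0. The members' mean deviation in muscle also moved with the share of spots well above background on the array (r 0.74, rho 0.78, and 0.64 without the 2 farthest arrays), and in aorta it did not (r -0.031, rho 0.12). In muscle it also ran with the adipocyte list (r 0.48, rho 0.67, and 0.60 without the 2 farthest arrays). The same values were 0.59, 0.36 and 0.19 for the macrophage list and 0.48, 0.36 and 0.30 for the cardiac muscle list. It ran against the endothelium list (r -0.68, rho -0.62) and the skeletal muscle list (r -0.61, rho -0.42), which fell to -0.37 and -0.22 without the 2 farthest arrays. In aorta it ran with the Schwann cell list (r 0.68, rho 0.69) and against the macrophage list (r -0.65, rho -0.54). Without the 2 farthest arrays these were 0.53 and -0.49. The part of any of these in the shared deviations was not tested. With slide as a term beside group, on 10 residual degrees of freedom a tissue, r was 0.98 for Idi1 in aorta and 0.93 in muscle, 0.59 and 0.85 for Hmgcs1, 0.84 and 0.25 for Fdft1, and 0.43 and -0.026 for Insig1. Among the arrays of the largest scan day, 16 in aorta and 15 in muscle, r was 0.97 and 0.95 for Idi1, 0.12 and 0.91 for Hmgcs1, 0.81 and -0.052 for Fdft1, and -0.38 and 0.14 for Insig1. Both settings were chosen after seeing the data.

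**Figure D5:**
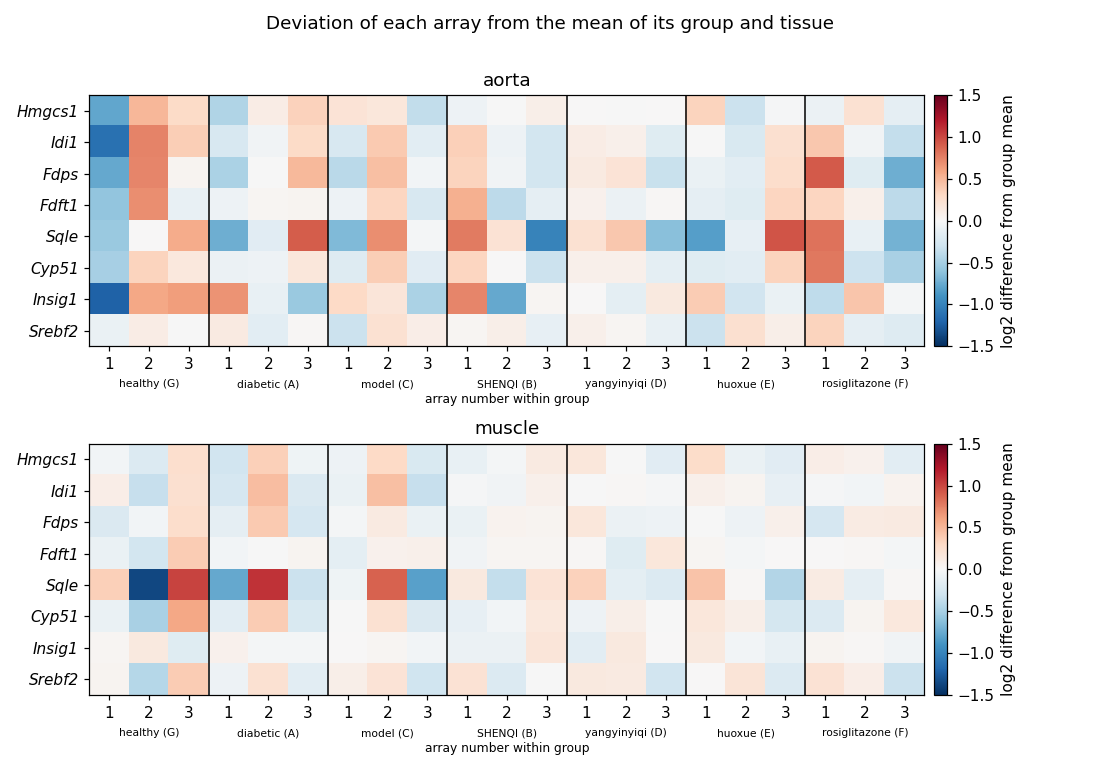
Difference of each gene (rows) on each array (columns) from the mean of its group and tissue, on the log2 scale by colour, with aorta above and muscle below. Healthy aorta 1 is below its group mean for all 8 genes and healthy aorta 2 above it, by mean deviations of -0.70 and 0.46, and Sqle has the strongest colours in muscle.

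The genes whose pattern was most like the mean of the members, over 42 arrays with each tissue centred, were Hebp2 (r 0.81), Hspa4l (0.79), Trfr2 (0.76), Scd2 (0.74) and Kcnh1 (0.72). The members' own values ran from 0.47 to 0.94 with a median of 0.80, and those of the 20 tested pathway genes from -0.28 to 0.92 with a median of 0.60.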

How the data were processed

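Total RNA of aorta and skeletal muscle was labelled with a single dye and hybridised to 4-array mouse slides, and the deposited spot intensity values came from Agilent Feature Extraction 10.7, per the labels. The members and lists were chosen with earlier results of these data known. From the authors' median and background intensity values, background was corrected by normexp with an offset of 0 and log2 values were quantile normalized over 42 arrays, with irregular spots set to missing, spots averaged to probes and probes to genes. The authors deposited a log2 value table too, used as an alternative. A gene entered a comparison if some set of 3 arrays in it had a probe of that gene well above background throughout. All probes of such a gene were averaged, dim ones included. Probes fitted alone had to pass the same rule themselves. Named genes were the members, genes of the pathway list that passed after adjustment, and the 5 genes most like the members' mean. Others are a cell type marker or are said to be named after their values were seen. limma 3.58.1 (R 4.3.3) was fitted over all genes of a comparison, per tissue, over both tissues with a tissue term, and for the difference between tissues. Called means an unadjusted p under 0.05, as in the study's methods, and Benjamini-Hochberg adjusted p-values stand beside it. The labels number the arrays as separate samples without naming the mice, so p-values measure the spread between these samples, which may be technical. The highest correlation between 2 arrays was 0.996, and the number of arrays limits the precision. Fits were tested on simulated data. Some genes of the pathway are not reported here.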

Additional observations from a re-analysis of the deposited data

Results flagged for a closer look

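For 3 members, the difference between the tissues in a comparison passed an unadjusted p under 0.05 in limma's test of the difference itself, and none passed after adjustment. In diabetic against healthy mice, the aorta difference minus the muscle difference was -1.40 for Idi1 (adjusted p = 0.672 by limma) and -0.98 for Cyp51 (adjusted p = 0.682 by limma). In SHENQI against model mice it was -0.58 for Hmgcs1 (adjusted p = 1 by limma).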

How the results depend on the processing

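The members' median log2 difference kept within 1 SD of the spread between single arrays under nearly all alternatives. That is a wide measure, and in diabetic against healthy aorta the median ran from -1.04 to -0.45 within it. Some alternatives, such as other filters, the replicate block or leaving out an array of the other tissue, cannot move a median within a tissue. The count of unchanged medians is therefore no measure of stability. For yangyinyiqi in muscle the members' median was 0.15 with slide as a fixed block. For huoxue in muscle it ran from -0.34 to 0.0595 when 1 array was left out, the highest without model muscle 2. For rosiglitazone in muscle it was -0.35 with the processed signal and 0.093 with a batch term for slides 1, 3 and 11, which were grouped after values had been seen, where Hmgcs1 turned to 0.0295. For aorta against muscle it was 1.09 with the processed signal and 1.06 with the authors' value table. The causes were not tested. Leaving out 1 array moved the number of members called in diabetic against healthy aorta from 3 to between 0 and 5, and the adjusted p of Idi1 there ran from 0.00776 to 0.402 over all alternatives, that of Insig1 from 0.00899 to 0.72 and that of Cyp51 from 0.0305 to 0.406. The adjusted p of Insig1 in model against healthy aorta ran from 0.00189 to 0.297. With the replicate number as a block the member medians could not move, since every group and tissue held the same numbers (-0.72 in diabetic against healthy aorta). The number of members called moved from 0 to 3 for yangyinyiqi in aorta and from 3 to 2 in diabetic against healthy aorta. Same-numbered arrays of different groups correlated between -0.54 and 0.60, and aorta and muscle arrays of the same group and number between -0.36 and 0.185. Neither range can say whether an aorta and a muscle came from the same mouse. No pairing was used, and the fits over both tissues treat the arrays as independent. Slide as a fixed block could be fitted only where shared slides linked the groups. Model and healthy groups had 3 arrays each, and genes with weak signal, Cyp51 above all, are limited by signal over background.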
